A study of Homo sapiens with 12 samples.

Results

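The transcripts described here encode ligands of the epidermal growth factor (EGF) receptor, receptors of the ERBB family and their feedback inhibitor. There were 8 such genes: the ligands HBEGF, AREG, EREG and TGFA, the receptors EGFR, ERBB2 and ERBB3, and the inhibitor ERRFI1. They were chosen by name and not by a threshold on their values, with earlier results of these data known. Of these 8 genes, 7 were listed in both tables, among the 16101 genes of the PMA table and the 15991 genes of the ConA table. EREG, which encodes the ligand epiregulin, was not listed in either table.

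The data were polyadenylated RNA sequencing of HT1080 cells, a human fibrosarcoma line labelled wild type, in 12 libraries of 4 groups with 3 libraries each. In the PMA experiment, cells were kept for 24 h in 40 nM of the protein kinase C activator phorbol 12-myristate 13-acetate (PMA) (replicates 1 to 3), and were compared with untreated controls (replicates 1 to 3). In the ConA experiment, cells received 40 µg/mL concanavalin A (ConA), a lectin that binds mannose-containing glycans, for 24 h (replicates 1 to 3), and were compared with untreated controls of their own (replicates 4 to 6). All cells had been grown in biotin-depleted medium and were in its low-serum form, with 1% fetal bovine serum, during the treatment. The study used both agents to perturb these cells and measured transcripts beside the proteins found near TIMP2, a secreted metalloproteinase inhibitor.

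EGF family ligands are made as precursors anchored in the membrane, from which proteases of the ADAM family release the soluble factor. Ligand binding pairs the receptors and switches on their kinases, which signal through RAS and the ERK kinases, among others. ERBB2 has no known ligand of its own and serves as a partner, while ERBB3 binds neuregulins and has little kinase activity. ERRFI1 (also called MIG6) binds the active EGFR kinase and inhibits it, and is itself a gene that growth factor signals switch on.

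The feature that makes HBEGF, AREG and TGFA ligands of the same receptor is the EGF-like domain, held together by paired cysteines. The coding sequences of this domain are shown for these members and for BTC, a further EGFR ligand whose transcript changed with ConA. They come from the GENCODE release 29 annotation of GRCh38, 5′ to 3′ on the coding strand, with the codons of the 6 cysteines in capitals.
HBEGF: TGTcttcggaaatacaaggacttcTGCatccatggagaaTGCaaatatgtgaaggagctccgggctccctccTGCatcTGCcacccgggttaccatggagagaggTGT
AREG: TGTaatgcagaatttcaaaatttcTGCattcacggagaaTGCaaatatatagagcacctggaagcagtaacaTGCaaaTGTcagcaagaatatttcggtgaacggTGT
TGFA: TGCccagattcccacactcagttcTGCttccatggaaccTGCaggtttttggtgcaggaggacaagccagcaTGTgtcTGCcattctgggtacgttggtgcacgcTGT
BTC: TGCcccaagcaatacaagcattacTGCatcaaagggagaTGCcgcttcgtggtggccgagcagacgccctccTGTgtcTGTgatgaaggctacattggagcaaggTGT
Each stretch held 36 codons (108 bases), and the cysteine codons were separated by 7, 4, 10, 1 and 8 codons in each. The stretches were found with a search pattern that fixed the 6 cysteines and the spacings of 7, 1 and 8. It held the other spacings to a narrow range, so the shared spacing was largely set by the search. The bases were only partly shared, as counted over the whole stretch with the cysteine codons included. HBEGF was identical to AREG at 64 of the 108 bases (59.3%) and to TGFA at 58 (53.7%), and AREG and TGFA were identical at 53 (49.1%). By bases the closest pair was TGFA and BTC, with 68 identical (63.0%). By encoded residues that pair and the pair of HBEGF and AREG each shared 19 of 36.

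The values are normalized counts: estimated reads per gene, scaled by a factor for each library but not by gene length. The libraries held 33641981 to 45595027 estimated reads (median 40973877), and every listed gene had about 10 estimated reads or more in at least 1 library of its table, the listing limit below. Of 12 mesenchymal marker genes, 12 were listed in both tables, with summed normalized counts of 617740 to 870670 per library. Of 12 epithelial markers, 6 were listed in the PMA table, without EPCAM and CDH1, and 10 in the ConA table, with both. All listed epithelial markers together summed to 509 to 980 in any library. Each treatment was tested against the controls of its own table with limma on log2(normalized count + 1). A gene was called when its absolute log2 fold change was at least 1 and its Benjamini-Hochberg adjusted p over all genes tested was at most 0.0001. The labels do not say whether the libraries of a group came from separate cultures, so these p-values measure only the spread between the libraries. In bulk RNA, fewer cells carrying a transcript and less transcript per cell cannot be told apart.

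With PMA, HBEGF, AREG, EGFR and ERRFI1 rose and TGFA fell, while ERBB2 and ERBB3 were not called. Thus 4 of the 7 members tested were called higher, where 4.03% of the 15153 genes tested were, and 1 was called lower, where 4.61% were. The adjusted p alone was passed by 5 of the 7 members and by 25.8% of all genes tested. For 6 of the 7 members the treated libraries were apart from the controls, with no overlap, beside 67.9% of all genes tested. The median log2 fold change was 1.06 over the 7 members and 0.0029 over all genes tested.

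**Figure D1:**
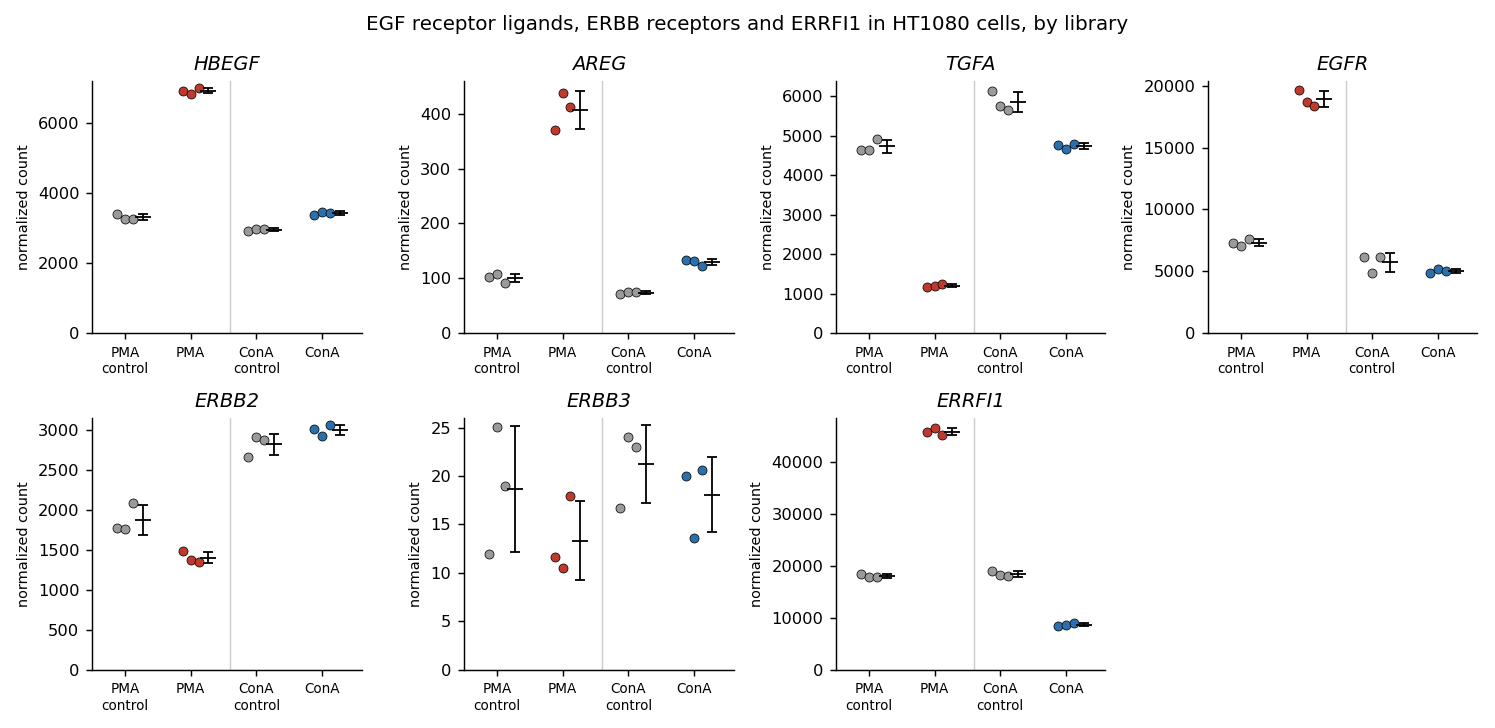
Normalized counts (vertical axes, linear and starting at 0, a separate scale for each gene) of the 7 listed members in every library. Points are libraries, and the bar beside each group is its mean with the SD (n = 3). Grey points are controls, red points PMA and blue points ConA, and the vertical line parts the separately normalized tables. A reader should see HBEGF, AREG, EGFR and ERRFI1 higher and TGFA lower with PMA than in any of its controls, and ERRFI1 lower with ConA.

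HBEGF encodes heparin-binding EGF-like growth factor, which binds EGFR and ERBB4 and is also the diphtheria toxin receptor (chromosome 5, 140332843 to 140346631, minus strand, GRCh38). Its normalized counts were 3400, 3260 and 3261 in the PMA controls and 6911, 6827 and 6977 with PMA. Every treated library lay about the same distance above every control. The log2 fold change was 1.06 (SE 0.037, adjusted p = 6.2e-10), a 2.09-fold rise from 3307 ± 80.9 to 6905 ± 75.2 (SD, n = 3). The 95% interval of 0.98 to 1.14 includes the threshold of 1, and under quantile normalization the value was 0.92, below the threshold.

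AREG encodes amphiregulin, a lower-affinity EGFR ligand (chromosome 4, 74445134 to 74455009, plus strand, GRCh38). Per kilobase it had the lowest level of the 3 listed member ligands in the controls. Its normalized counts were 101, 107 and 92.1 in the PMA controls and 370, 438 and 412 with PMA. Its treated libraries differed more among themselves than those of HBEGF did, but the lowest lay far above the highest control. AREG rose by 2.01 on the log2 scale (SE 0.10, adjusted p = 1.5e-08), from 100 ± 7.68 to 407 ± 34.2 (SD, n = 3). These values rested on 102 to 461 estimated reads per library. A second copy of the gene is annotated as AREGB in older human genome builds. AREGB was not listed in either table, and AREG's estimated reads were whole numbers (within 0.1) in 6 of 6 libraries of each table. How reads that match both copies were treated is not given in the sources used here, and had they been discarded, the AREG values would be undercounts.

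TGFA encodes transforming growth factor alpha, a high-affinity EGFR ligand (chromosome 2, 70447280 to 70554193, minus strand, GRCh38). It moved the other way. Its normalized counts were 4639, 4635 and 4926 in the PMA controls and 1166, 1188 and 1244 with PMA. The fall was the same size in each treated library, and the groups were far apart. On the log2 scale TGFA fell, with a fold change of -1.98 (SE 0.045, adjusted p = 2.1e-11), from 4734 ± 167 to 1199 ± 40.4 (SD, n = 3).

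EGFR, the receptor for these ligands (chromosome 7, 55019021 to 55211628, plus strand, GRCh38), had normalized counts of 7303, 7066 and 7608 in the PMA controls. With PMA they were 19652, 18689 and 18408. All 3 treated libraries were thus well above the controls. EGFR rose by 1.37 on the log2 scale (SE 0.042, adjusted p = 2.4e-10), from 7326 ± 272 to 18916 ± 652 (SD, n = 3). The antisense gene EGFR-AS1, named here after its values were seen, had normalized counts of 12.0, 11.7 and 13.6 in the PMA controls and 28.0, 30.5 and 20.4 with PMA. The strand setting of the counting is not given in the sources used here, so reads of EGFR and of its antisense partner cannot be told apart, although the antisense gene's values were small beside those of EGFR.

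The other two receptors did not rise with EGFR. ERBB2 (chromosome 17, 39687914 to 39730426, plus strand, GRCh38) had normalized counts of 1767, 1766 and 2085 in the PMA controls and 1482, 1371 and 1349 with PMA. The groups did not overlap, but the log2 fold change of -0.42 (SE 0.068, adjusted p = 0.00025) passed neither threshold. ERBB3 (chromosome 12, 56076799 to 56103505, plus strand, GRCh38) was close to the listing limit, with normalized counts of 12.0, 25.0 and 19.0 in the PMA controls and 11.6, 10.5 and 18.0 with PMA. Its groups overlapped. The log2 fold change was -0.43 (95% interval -1.22 to 0.35, adjusted p = 0.31), from 10 to 28 estimated reads per library. This interval excludes neither a halving nor a small rise.

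ERRFI1, the EGFR inhibitor (chromosome 1, 8004404 to 8026308, minus strand, GRCh38), had the highest level per kilobase of the 7 members in all 4 groups. Its normalized counts were 18412, 17769 and 17878 in the PMA controls and 45873, 46631 and 45169 with PMA. The libraries of each group lay close together and far from the other group. ERRFI1 rose by 1.35 on the log2 scale (SE 0.037, adjusted p = 9.5e-11), from 18020 ± 344 to 45891 ± 732 (SD, n = 3).

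Some blood cell markers were also higher in the PMA libraries. Of 10 T and NK cell markers, 9 were listed in the PMA table (TRAC was not), with summed normalized counts of 1157 to 1306 in the controls and 1732 to 2176 with PMA. Of these 9, 1 was called higher, GNLY, and 8 were not called, where 4.03% of all genes tested were called higher. Of 7 B cell markers, 2 were listed (CD79B and FCRLA), with sums of 195 to 225 in the controls and 331 to 427 with PMA. Of 10 monocyte markers, 5 were listed (CD14 was not), with sums of 345 to 380 and 381 to 423. Of the 3 tested, 1 was called higher, CD163, from 3.63 ± 0.964 to 28.2 ± 3.59 (SD, n = 3, log2 fold change 2.67, limma adjusted p = 5.3e-05). A mean of at least 10 was needed for testing, and CD163 reached it only through its PMA libraries. Its call therefore adds no support to a rise of these markers. None of 7 erythroid markers was listed. In the ConA table, 1 of the 10 T and NK cell markers was listed, CD3D, with 21.9 to 31.0 in the controls and 21.6 to 26.1 with ConA. The 3 listed B cell markers there summed to 237 to 319 in the controls and 248 to 302 with ConA. The 4 listed monocyte markers summed to 445 to 480 and 380 to 442, and 0 of the 3 tested were called. Their log2 fold changes with ConA were 2.88 for ITGAM (limma adjusted p = 0.00013), 0.24 for LYZ and -0.46 for CSF1R. The part of such markers in the results of the members was not tested.

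With ConA, 1 of the 7 members was called, ERRFI1, which fell. Thus 1 of 7 was called lower, where 2.88% of the 15139 genes tested were, and 0 of 7 were called higher, where 5.83% were. The adjusted p alone was passed by 1 of 7 members and by 30.5% of all genes tested. For 5 of the 7 members the treated libraries were apart from the controls, with no overlap, which is close to the 69.3% of all genes tested. The median log2 fold change was -0.18 over the members and -0.0022 over all genes tested.

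ERRFI1 had normalized counts of 19030, 18267 and 18021 in the ConA controls and 8351, 8662 and 8926 with ConA. Every treated library lay below every control. Its log2 fold change was -1.09 (SE 0.051, adjusted p = 2.7e-10), from 18440 ± 526 to 8646 ± 288 (SD, n = 3). The 95% interval of -1.20 to -0.98 includes the threshold of -1.

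No member ligand was called with ConA. AREG had normalized counts of 70.9, 75.0 and 75.1 in the ConA controls and 133, 132 and 123 with ConA. The groups did not overlap, but the log2 fold change of 0.80 (95% interval 0.52 to 1.09, adjusted p = 0.00010) was below the fold threshold and just missed the adjusted p. HBEGF had 2903, 2969 and 2964 in the controls and 3363, 3463 and 3428 with ConA, a log2 fold change of 0.21 (adjusted p = 0.0017). TGFA had 6142, 5763 and 5651 in the controls and 4762, 4672 and 4801 with ConA, a log2 fold change of -0.30 (adjusted p = 0.00014). These 3 ligands were therefore not called, although treated and control libraries were apart for each.

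None of the receptors was called with ConA. EGFR had normalized counts of 6179, 4850 and 6160 in the ConA controls and 4875, 5209 and 5050 with ConA. One control library, replicate 5, lay below all treated ones, so the groups overlapped. The log2 fold change was -0.18 (95% interval -0.35 to -0.0040, adjusted p = 0.067), and it was -0.29 (adjusted p = 0.00041) without that library. ERBB2 had 2665, 2914 and 2878 in the controls and 3013, 2928 and 3059 with ConA, a log2 fold change of 0.09 (95% interval -0.028 to 0.21, adjusted p = 0.17). ERBB3 had 16.7, 24.0 and 23.0 in the controls and 20.0, 13.6 and 20.7 with ConA, overlapping ranges with a log2 fold change of -0.23 (95% interval -0.86 to 0.41, adjusted p = 0.52). For ERBB2 the interval excludes a change as large as the threshold in either direction, and for ERBB3 it also lies inside the thresholds but is wide.

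**Figure D2:**
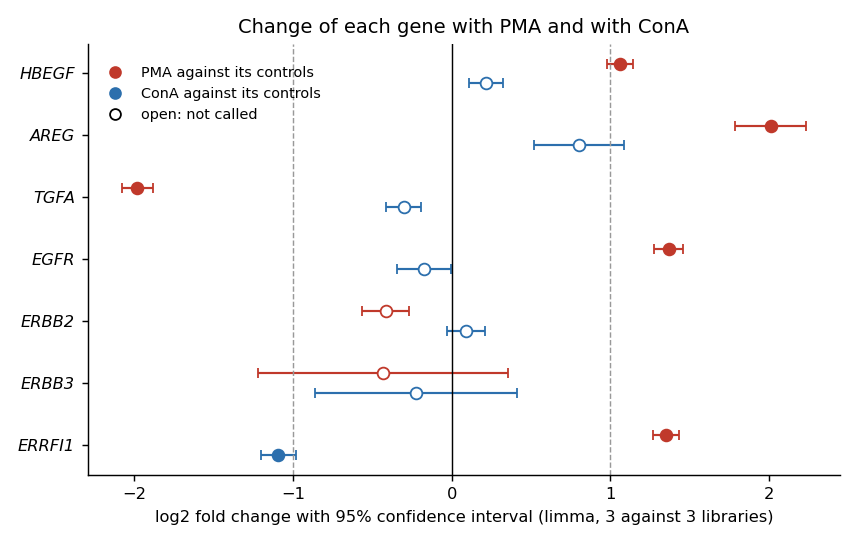
Log2 fold change (horizontal axis) of each of the 7 listed members with PMA (red) and with ConA (blue), each against the 3 controls of its own table. Points are limma estimates, bars are 95% confidence intervals, filled points were called and open points were not, and dashed lines mark the fold threshold. ERRFI1 is called on both sides of 0, at 1.35 with PMA and at -1.09 with ConA.

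The changes under the treatments were then compared directly, with the log2 change under ConA subtracted from that under PMA, over all 12 libraries. The difference was called for 4 of the 7 members, AREG, TGFA, EGFR and ERRFI1, beside 10.6% of the 15030 genes tested. ERRFI1 had the largest difference, 2.44 (SE 0.059, limma adjusted p = 6.0e-16), since it rose with PMA and fell with ConA. The difference was 1.54 for EGFR (SE 0.10, adjusted p = 6.3e-10), 1.21 for AREG (SE 0.15, adjusted p = 3.0e-06) and -1.68 for TGFA (SE 0.066, adjusted p = 5.3e-13). For HBEGF it was 0.85 (95% interval 0.73 to 0.97, adjusted p = 8.5e-10), which passed the adjusted p but not the fold. The difference was not called for ERBB2 (-0.51, 95% interval -0.70 to -0.32, adjusted p = 0.00011) or for ERBB3 (-0.21, 95% interval -1.18 to 0.77, adjusted p = 0.72).

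Levels of different genes can be compared only per length. Normalized counts were therefore divided by the merged exon length of each gene in GENCODE, in kilobases, which takes no account of which transcript these cells use. In the PMA controls the order per kilobase was ERRFI1 (4305), HBEGF (1096), TGFA (954), EGFR (585), ERBB2 (181), AREG (60.8) and ERBB3 (2.06), and no neighbours in this order overlapped in their ranges over libraries. With PMA it was ERRFI1 (10963), HBEGF (2288), EGFR (1511), AREG (247), TGFA (242), ERBB2 (136) and ERBB3 (1.48). By merged exon length, TGFA thus dropped from the third place to a level at which its range overlapped that of AREG. In the ConA controls TGFA (1179) stood above HBEGF (976), and with ConA HBEGF (1133) stood above TGFA (956). Per kilobase of the principal transcript, the place of ERBB2 changed. With PMA it had 308 and overlapped AREG (328), with TGFA (278) below both and no longer overlapping AREG. In the ConA controls its range overlapped that of EGFR, and with ConA it stood above EGFR (660 against 514).

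Within each library, the makeup of the listed member ligands can be given free of the library factor. HBEGF made up 51.9% ± 1.16 of the summed per-kilobase level of HBEGF, AREG and TGFA in the PMA controls and 82.4% ± 0.793 with PMA (SD, n = 3). TGFA went from 45.2% ± 1.32 to 8.70% ± 0.191, and AREG from 2.89% ± 0.254 to 8.89% ± 0.718. The sum itself, which unlike the shares depends on the library factor, was 2110 ± 27.2 per kilobase in the controls and 2776 ± 32.5 with PMA. The ligand pool thus moved from a near even mix of HBEGF and TGFA to one that was mostly HBEGF. In the ConA experiment HBEGF made up 44.4% ± 1.30 in the controls and 52.3% ± 0.601 in the treated libraries, and TGFA 53.6% ± 1.40 and 44.1% ± 0.618. There the sum was 2200 ± 39.0 in the controls and 2167 ± 11.7 with ConA, with overlapping ranges. These shares follow from the gene values given above and carry no separate test.

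The ratio of the inhibitor to the receptor also differed between the treatments. The log2 ratio of ERRFI1 to EGFR normalized counts was 1.30 ± 0.058 in the PMA controls and 1.28 ± 0.050 with PMA (SD, n = 3), with overlapping ranges, since both transcripts rose by similar factors. In the ConA experiment it was 1.69 ± 0.19 in the controls and 0.78 ± 0.044 with ConA, and the groups did not overlap. The log2 ratio of ERBB2 to EGFR moved from -1.97 ± 0.093 in the PMA controls to -3.76 ± 0.024 with PMA, and was -1.02 ± 0.25 in the ConA controls and -0.75 ± 0.072 in the ConA libraries, where the ranges overlapped.

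**Figure D3:**
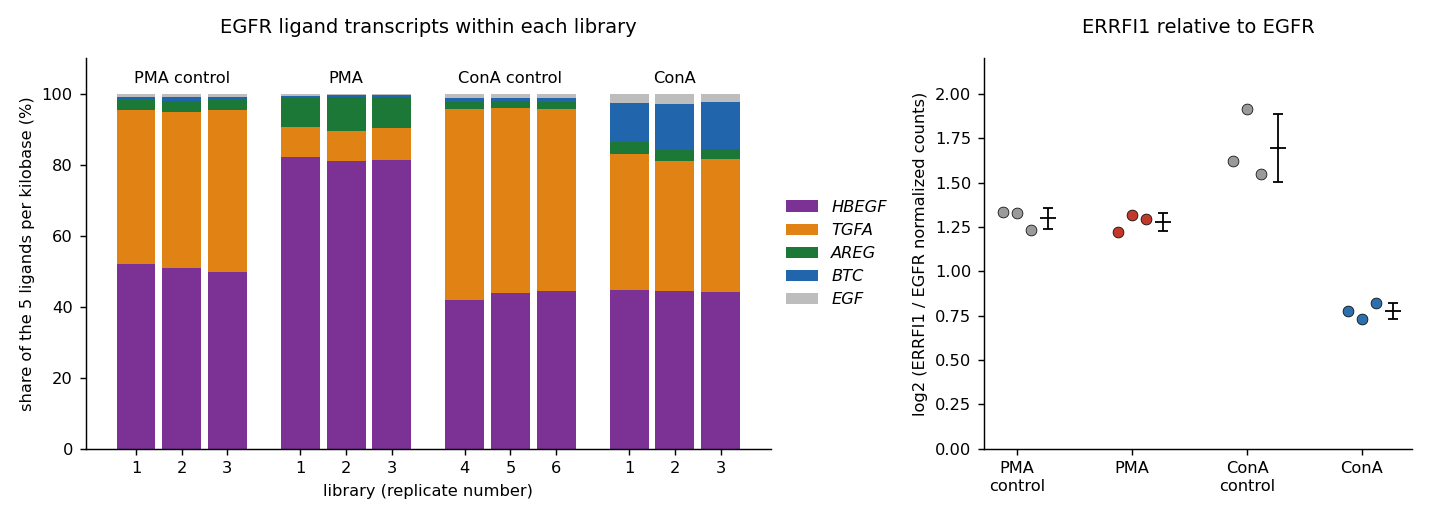
Left, share of each of 5 EGFR ligands (vertical axis, percent of their summed normalized counts per kilobase of merged exons) in each library, with 1 stacked bar per library. Right, log2 ratio of ERRFI1 to EGFR normalized counts per library, with mean and SD (n = 3) beside the points. HBEGF takes 81.6% of the 5 ligands with PMA and 50.9% in its controls, BTC takes 12.4% with ConA and 0.989% in its controls, and the log2 ratio is lowest with ConA, at 0.73 to 0.82.

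The rest of the EGF family held changes as large as those of the members. Of 8 further genes (EGF, BTC, EPGN, NRG1 to NRG4 and ERBB4), EGF, BTC, NRG1 and NRG2 were listed, while the receptor ERBB4 was not listed in either table. With PMA 1 of the 4 tested was called higher, where 4.03% of all genes tested were, and 0 lower, where 4.61% were. The median log2 fold change was -0.13. With ConA 2 of the 4 were called higher, where 5.83% of all genes tested were, and 1 lower, where 2.88% were. The median there was 1.04.

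BTC encodes betacellulin, a ligand of EGFR and ERBB4. Its normalized counts were 77.1, 52.0 and 59.1 in the ConA controls and 774, 958 and 947 with ConA. The treated libraries were far above the controls, with a log2 fold change of 3.82 (SE 0.14, adjusted p = 1.6e-11). In the PMA experiment it had 55.3, 75.1 and 64.1 in the controls and 48.8, 31.4 and 43.1 with PMA, a log2 fold change of -0.66 (adjusted p = 0.016) that was not called. Added to the ligand pool, BTC made up 0.989% ± 0.186 of the 5 ligands per kilobase in the ConA controls and 12.4% ± 1.21 in the treated libraries (SD, n = 3), and 1.07% ± 0.175 and 0.521% ± 0.113 in the PMA controls and with PMA.

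EGF, the founding ligand, had normalized counts of 164, 163 and 166 in the ConA controls and 387, 430 and 377 with ConA. It rose in each treated library, with a log2 fold change of 1.27 (SE 0.096, adjusted p = 4.7e-08). With PMA it had 83.6, 66.5 and 57.5 against 114, 107 and 104 in the controls, a log2 fold change of -0.66 (adjusted p = 0.0034) that was not called.

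NRG1 encodes neuregulin 1, which binds ERBB3 and ERBB4. It was called in both experiments, in opposite directions. Its normalized counts were 1330, 1364 and 1392 in the PMA controls and 6229, 6026 and 5680 with PMA, a log2 fold change of 2.13 (SE 0.045, adjusted p = 1.3e-11). In the ConA experiment they were 1587, 1500 and 1669 in the controls and 685, 792 and 711 with ConA, a log2 fold change of -1.12 (SE 0.072, adjusted p = 9.2e-09). Of its receptors, ERBB3 was near the listing limit in these cells and ERBB4 was not listed. NRG2, a further neuregulin named after its values were seen, was not called, with log2 fold changes of 0.41 with PMA and 0.82 with ConA.

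**Figure D4:**
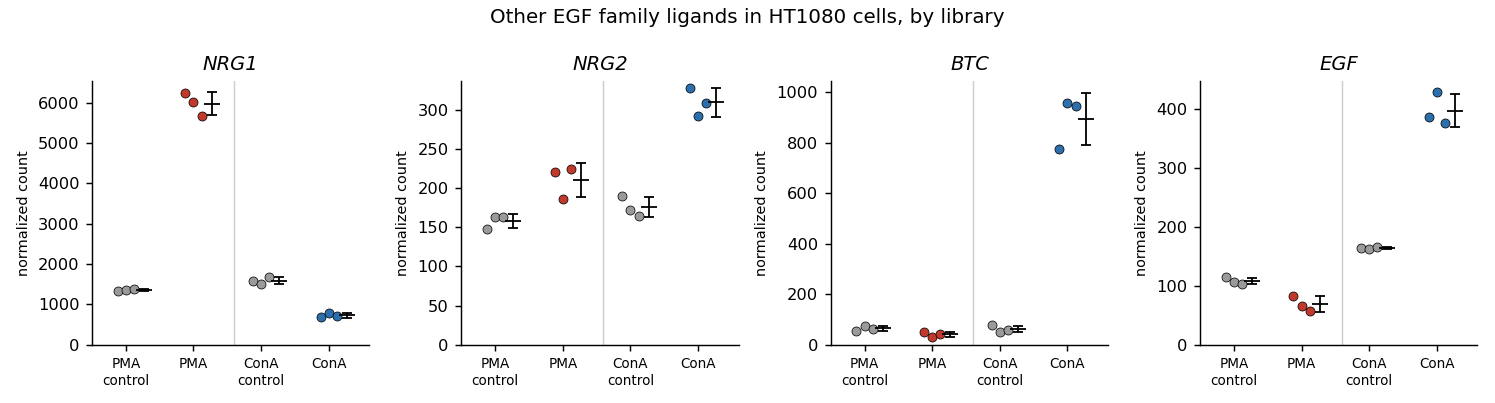
Normalized counts (vertical axes, linear and starting at 0, a separate scale for each gene) of the 4 listed EGF family ligands outside the members, in every library. Points are libraries and the bars beside them give the mean and SD (n = 3). BTC and EGF are high in the 3 ConA libraries, and NRG1 is high in the 3 PMA libraries and low in the 3 ConA libraries.

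Genes that act on ligands and receptors were described by lists, whose counts can be read against the shares of all genes given above (4.03% called higher and 4.61% lower with PMA, 5.83% and 2.88% with ConA). Of 16 genes for ligand shedding and trafficking, 15 were tested in each table. With PMA 0 were called higher and 1 lower, PRNP, which encodes the prion protein (log2 fold change -1.08, adjusted p = 7.5e-10). With ConA 1 was called higher and 0 lower, RHBDL2, an intramembrane protease of the rhomboid family. RHBDL2 rose from 250 ± 8.08 to 772 ± 34.0 (SD, n = 3), by 1.62 on the log2 scale (adjusted p = 4.6e-10). The medians were -0.06 with PMA and 0.05 with ConA.

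Of 30 adaptors and kinases of the cascade, 0 were called with PMA. With ConA 1 was called lower, PRKCA, the protein kinase C alpha gene, whose product is a target of PMA. PRKCA fell from 6189 ± 444 to 1640 ± 61.3 with ConA (log2 fold change -1.91, adjusted p = 4.1e-12), and under PMA its log2 fold change was -0.78 (adjusted p = 4.2e-08), which was not called. The medians were 0.24 with PMA and 0.06 with ConA.

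Of 27 genes for receptor turnover and inhibition, 25 were tested with PMA, of which 1 was called higher and 1 lower. PTPN12, a tyrosine phosphatase, rose from 4580 ± 42.3 to 11662 ± 284 (log2 fold change 1.35, adjusted p = 7.5e-11). LRIG1, a transmembrane protein that promotes degradation of ERBB receptors, fell from 3732 ± 153 to 1764 ± 29.1 (log2 fold change -1.08, adjusted p = 2.1e-09). With ConA 0 of 26 were called. There LRIG1 stood at -0.95 on the log2 scale (adjusted p = 5.5e-09), and PTPN12 one of 0.79 (adjusted p = 1.7e-07), both past the adjusted p but not the fold. The medians were 0.19 with PMA and 0.06 with ConA.

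Of 29 genes of ERK feedback and early response to EGF, 28 were tested with PMA, and 13 were called higher and 2 lower, with a median log2 fold change of 0.85. The 2 called lower, named after their values were seen, were DUSP4 (log2 fold change -1.38, adjusted p = 5.4e-10) and SPRY1 (-1.40, adjusted p = 2.9e-05). Over all genes 4.03% were called higher and 4.61% lower. With ConA 2 of 27 were called higher, where 5.83% of all genes were, and 0 lower, with a median of -0.06. EGR1, an early-response transcription factor, rose from 535 ± 64.7 to 6619 ± 246 with PMA (log2 fold change 3.63, adjusted p = 1.4e-11), while under ConA its value was 0.91 (adjusted p = 1.1e-06), which was not called. DUSP5, a phosphatase that inactivates ERK in the nucleus, rose from 5127 ± 157 to 25365 ± 822 with PMA (log2 fold change 2.31, adjusted p = 3.0e-12) and had one of 0.21 with ConA (adjusted p = 0.0055). The 2 genes called with ConA were TNFAIP3, a ubiquitin-editing inhibitor of NF-kB signals, and FOS, an AP-1 subunit. TNFAIP3 rose with both treatments, by 2.92 with PMA and 4.09 with ConA on the log2 scale. FOS rose by 1.53 with ConA (adjusted p = 1.3e-07) and stood at 0.81 with PMA (adjusted p = 7.8e-05), the latter not called.

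For each member called, the 3 genes with the most similar values were found among 14661 genes, by the Euclidean distance over the 12 libraries after each gene was set relative to the mean of its controls (log2). Those nearest to HBEGF were EVA1A (distance 0.12), SDCCAG8 (0.16) and ELK3 (0.18). The nearest to EGFR were TRIB1 (0.23), JARID2 (0.24) and SLC1A3 (0.31). ERRFI1 was nearest to SLC14A1 (0.23), ASB1 (0.33) and ATP2B4 (0.38), genes that likewise had log2 fold changes of 1.23 to 1.25 with PMA and -1.19 to -1.09 with ConA. AREG was nearest to SPHK1 (0.40), PDPN (0.42) and LAMB3 (0.46), and TGFA to ERG28 (0.35), SVIL (0.38) and PCDHB5 (0.39). The distances describe likeness of values over these libraries only.

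PMA is known to act on promoters through the TPA response element, to which AP-1 binds. The members' promoters were searched for it with the pattern TGANTCA, where N is any base, and for the cAMP response element (TGACGTCA). Both motifs read alike on either strand, and a match to one cannot overlap a match to the other. The windows were the 250 bases before each RefSeq start in GRCh38.p14. Of the 8 members, 7 had a window, 9 windows in all, and ERBB3 had none. A match to TGANTCA was in 2 of the 9 windows, beside 6.57% of 35116 windows of all genes. The cAMP response element was in 1, beside 1.65%. The windows shown are those of AREG, which rose with PMA and held the match to the cAMP response element, and of a downstream start of EGFR, which held 2 matches to the TPA response element. Matches are in capitals, and each window is written 5′ to 3′ on the gene's own strand, which is the plus strand for both.
AREG, chr4:74444886-74445135: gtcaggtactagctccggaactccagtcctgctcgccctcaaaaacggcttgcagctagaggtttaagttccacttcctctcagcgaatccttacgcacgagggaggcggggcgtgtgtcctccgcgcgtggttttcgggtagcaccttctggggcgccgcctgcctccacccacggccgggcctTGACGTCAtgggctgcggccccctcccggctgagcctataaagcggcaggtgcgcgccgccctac
EGFR, chr7:55109589-55109838: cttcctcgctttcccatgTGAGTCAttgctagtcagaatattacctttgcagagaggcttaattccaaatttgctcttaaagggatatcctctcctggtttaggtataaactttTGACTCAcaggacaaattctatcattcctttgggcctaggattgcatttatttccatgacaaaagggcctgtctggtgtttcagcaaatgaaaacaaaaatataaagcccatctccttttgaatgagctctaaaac
In AREG the match to the cAMP response element began 65 bases before the start. In EGFR the matches to the TPA response element began 232 and 136 bases before a start that lies within the gene, in a window that overlaps no exon of the principal transcript. The main EGFR start held none, and neither did the windows of HBEGF, TGFA and ERRFI1, which were also called with PMA. ERBB2, which was not called, held 1 match to the pattern TGANTCA, 222 bases before its start. Its letters were TGATTCA, with another middle base than the EGFR matches (TGAGTCA and TGACTCA). A match says only that these letters occur there, and the tables do not tell which start was used.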

How the data were processed

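Polyadenylated RNA of 12 HT1080 libraries was sequenced by a service company. The values are signal as deposited by the authors: normalized counts per gene symbol, in 1 table per experiment, each normalized apart. Tools named by the submitters' processing notes are Partek, STAR, Bowtie2 and DESeq2, and their roles, versions and the genome build behind each table are not given in the sources used here. Values between 5 and 60 became whole numbers (within 0.02) in 80.2% to 82.5% of cases under the best factor per library, so whole reads were not recovered and no count test was run. Depth was 33641981 to 45595027 estimated reads.

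Each treatment was compared with the controls of its own table by limma 3.58.1 (R 4.3.3) on log2(value + 1), with a variance trend, over genes with a mean of at least 10, with Benjamini-Hochberg adjustment over all genes tested. Calls needed a log2 fold change beyond 1 in size with an adjusted p no higher than 0.0001. Fold changes on this scale understate changes of low genes. The difference between treatments was fitted over all 12 libraries with 4 group means. The script was tested on simulated data. An exact permutation test of 3 against 3 libraries cannot go below p = 0.1 and was not used.

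The members, gene lists and tests were chosen with earlier results of these data known. Genes were named by rule: all members, up to 3 called genes of each list per treatment with the largest fold change, and the 3 genes most like each called member. Alternatives changed the pseudocount (0.1 and 10), the minimum level (none, or a mean of 50), the scaling, the variance trend, the adjusted p (0.05), the block and the libraries used. Gene positions and lengths came from GENCODE release 29 (GRCh38), promoters from RefSeq (GRCh38.p14). Python 3.11.15, pandas 2.3.3 and matplotlib 3.10.9 were used for tables and figures.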

Additional observations from a re-analysis of the deposited data

Results flagged for a closer look

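The change with PMA and the change with ConA were compared for the members and for the list genes named by rule. These changes differed by at least 1 on the log2 scale, at a limma adjusted p of at most 0.0001, for 12 genes. They did not for HBEGF, ERBB2, ERBB3, PRNP, PTPN12, LRIG1 and FOS. Over all genes, 10.6% of the 15030 tested passed. The list genes had been picked for large called changes with a treatment in these same libraries. A difference between treatments was therefore more likely among them, and how many passed cannot be read against the share of all genes. The adjusted p is from limma's test of the difference itself, and the ConA change was subtracted from the PMA change. Among the members the difference was 2.44 for ERRFI1 (adjusted p = 6.0e-16), -1.68 for TGFA (adjusted p = 5.3e-13), 1.54 for EGFR (adjusted p = 6.3e-10) and 1.21 for AREG (adjusted p = 3.0e-06). ERRFI1 was higher than its controls in 3 of 3 PMA libraries and lower in 3 of 3 ConA libraries.

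Among the other ligands it was 3.25 for NRG1 (adjusted p = 1.6e-15), -4.48 for BTC (adjusted p = 8.4e-11) and -1.92 for EGF (adjusted p = 5.4e-08). For the shedding protease RHBDL2 it was -1.19 (adjusted p = 4.1e-07), and for the kinase PRKCA it was 1.13 (adjusted p = 1.3e-09). Among the ERK feedback and EGF-induced genes it was 2.73 for EGR1 (adjusted p = 4.5e-12), 2.10 for DUSP5 (adjusted p = 6.5e-14) and -1.16 for TNFAIP3 (adjusted p = 4.8e-07). TNFAIP3 rose with both treatments, and more with ConA.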

How the results depend on the processing

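Over the alternatives run, 4 to 5 members were called with PMA, 1 with ConA and 4 for the difference. The difference of ERBB3, which was never called, changed sign, from -0.21 to 0.35 under quantile normalization and to 0.023 without PMA control replicate 2, in a range of -0.48 to 0.023 when each library was left out in turn. HBEGF with PMA was 0.92 under quantile normalization (adjusted p = 4.1e-09), below the fold threshold, and lay between 1.05 and 1.08 when each library was left out in turn. The other 330 member values kept their direction and their call (fold and adjusted p together). So did 570 of the values of the list genes named by rule. The adjusted p alone crossed 0.0001 in 11 and 14 of these. Among the members it did so for ERBB2 with PMA (lowest 2.0e-05) and for its difference (3.0e-05), and for AREG (4.3e-06) and TGFA (1.9e-05) with ConA. In 4 of 15 alternatives the size of TGFA's change with PMA exceeded that of AREG. Of the rest, NRG1 with ConA (adjusted p = 0.00011) and the TNFAIP3 difference (adjusted p = 0.00011) missed the adjusted p without the variance trend, and the RHBDL2 difference was -0.92 under quantile normalization. LRIG1 with ConA reached -1.01 under median centring, EGR1 with ConA 1.00 without ConA control replicate 6, and the PRNP difference -1.16 under quantile normalization. The cause was not tested. Over all genes, calls numbered 1310 in the PMA table and 1318 in the ConA table, and 867 and 662 without the variance trend.

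With the replicate block, 5 members and 1264 genes were called with PMA. The PMA libraries and their controls share only a number: correlations of same-numbered libraries' deviations were -0.064, 0.096 and 0.096. The ConA groups share no numbers. Depth limits ERBB3 most, with 10 to 28 estimated reads per library.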
